A study of Mus musculus with 4 samples.

Results

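The matrix-degrading metalloproteinases and their inhibitors were examined in J558 allografts of mice that received vehicle or TAK-931. All genes whose symbol began with Mmp and a digit, with Adamts, or with Timp and a digit were taken, and antisense entries (Mmp symbols ending in os) were left out. This rule gave 51 of the 24421 genes in the tables, namely 23 matrix metalloproteinases (MMPs), 19 ADAMTS proteinases, 5 ADAMTS-like genes and 4 tissue inhibitors of metalloproteinases (TIMPs). Of these, 46 had at least 1 read count in some library and 36 had enough counts to be tested.

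J558 is a mouse plasmacytoma line, grown here under the skin of the right flank of female BALB/c mice, which keep their own immune and stromal cells. Mice received 0.5% methylcellulose (Vehicle) or TAK-931, an inhibitor of the replication kinase CDC7, by mouth at 60 mg/kg once daily for 6 days. Bulk RNA was sequenced from 2 allografts per group, each from another mouse, and the libraries were named Vehicle-1, Vehicle-2, TAK-931-1 and TAK-931-2. Total counts lay between 16487902 and 19589339 per library.

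MMPs are zinc-dependent proteinases that are made as inactive precursors and cut collagens, gelatin, elastin, proteoglycans and many secreted signals. ADAMTS proteinases are related secreted enzymes that trim procollagens, cut large proteoglycans such as versican and aggrecan, or process blood and fibrillin-associated proteins, whereas ADAMTS-like proteins share their ancillary domains but have no catalytic domain. TIMPs bind the active site of these enzymes. In tumours much of this activity comes from fibroblasts, endothelial cells, macrophages and neutrophils rather than from the tumour cells alone.

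Of the MMP genes, 10 form a cluster on chromosome 9, chr9:7272514-7699416 in mm10 (GRCm38), and this cluster held both well-read genes and genes with no read at all. The stretches before their transcription starts are shown because some genes of either kind carry the same short motifs there. The 100 bases upstream of the RefSeq transcription start (GRCm38.p6) are printed 5′ to 3′ on the gene's own strand, with capitals marking TGAGTCA (or TGACTCA, the same letters on the other strand), the letters that AP-1 factors of the Fos and Jun families bind, and TATAAA, the core of a TATA box. The last of them, Mmp27, has neither motif.
Mmp13 (chr9:7272414-7272513, plus strand): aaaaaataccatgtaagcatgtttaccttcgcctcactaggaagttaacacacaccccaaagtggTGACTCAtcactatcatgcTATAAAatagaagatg
Mmp12 (chr9:7347274-7347373, plus strand): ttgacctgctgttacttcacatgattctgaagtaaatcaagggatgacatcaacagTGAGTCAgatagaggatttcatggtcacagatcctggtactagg
Mmp3 (chr9:7445722-7445821, plus strand): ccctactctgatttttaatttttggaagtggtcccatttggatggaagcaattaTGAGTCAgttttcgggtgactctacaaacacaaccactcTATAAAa
Mmp10 (chr9:7502242-7502341, plus strand): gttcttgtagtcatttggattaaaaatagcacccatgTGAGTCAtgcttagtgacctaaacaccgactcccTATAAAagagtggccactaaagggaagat
Mmp7 (chr9:7691990-7692089, plus strand): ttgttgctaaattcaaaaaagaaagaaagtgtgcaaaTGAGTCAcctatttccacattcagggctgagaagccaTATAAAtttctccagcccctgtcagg
Mmp1a (chr9:7464041-7464140, plus strand): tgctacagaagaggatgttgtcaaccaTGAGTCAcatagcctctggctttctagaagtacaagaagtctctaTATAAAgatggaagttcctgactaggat
Mmp1b (chr9:7388027-7388126, minus strand): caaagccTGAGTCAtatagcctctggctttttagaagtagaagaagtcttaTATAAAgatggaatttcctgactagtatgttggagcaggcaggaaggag
Mmp27 (chr9:7571296-7571395, plus strand): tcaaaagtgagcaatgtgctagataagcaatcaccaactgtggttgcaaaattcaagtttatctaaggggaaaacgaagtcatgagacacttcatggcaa

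Both motifs were searched on both strands of the window from 250 bases before to 50 bases after each start. TGAGTCA was found in 7 of the 10 cluster genes, the 7 printed with capitals, and each of these also held TATAAA. In Mmp12 the TATAAA lay after the start and is outside the stretch shown. Over all 32851 promoters of the RefSeq table, TGAGTCA stood in 5.2%, TATAAA in 13.6% and both in 0.941%. RefSeq promoters were matched for 36 of the 51 genes, and TGAGTCA was found in 0 of the 26 matched genes outside the cluster, whereas TATAAA was found in 3. These matches describe letters in a window and do not show binding.

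Libraries of the TAK-931 group differed from each other far more than those of the Vehicle group. The biological coefficient of variation was 0.132 between the Vehicle libraries and 0.579 between the TAK-931 libraries. TAK-931-1 stood apart in markers of host cells. Levels are given in CPM, read counts scaled by TMM to a common library total. Summed over 8 macrophage markers, the level was 457 to 535 CPM in the Vehicle libraries, 7821 CPM in TAK-931-1 but 1396 CPM in TAK-931-2, and all 8 were higher in both TAK-931 libraries. The 9 fibroblast markers summed to 1922 to 2196 CPM in Vehicle, 15325 CPM in TAK-931-1 but 5184 CPM in TAK-931-2, with 8 of 9 not overlapping. Of the 7 endothelial markers 3 did not overlap, and they summed to 248 to 275 CPM in Vehicle, 905 CPM in TAK-931-1 but 259 CPM in TAK-931-2. The 6 T cell markers, all higher in both TAK-931 libraries, summed to 5.99 to 10.6 CPM in Vehicle, 974 CPM in TAK-931-1 but 49.9 CPM in TAK-931-2. Skeletal muscle markers reached 685 CPM in TAK-931-1 against 11.4 CPM in TAK-931-2 and 87.8 to 88.5 CPM in Vehicle, with 6 of 6 overlapping, and adipocyte markers stood at 263, 28.6 and 45.1 to 67.7 CPM, where 2 of 5 were tested and 1, Cidec, was lower in both TAK-931 libraries. J558 and plasma cell markers such as Jchain, Sdc1, Xbp1 and Trap1a were read in every library and summed to 8918 to 9474 CPM in Vehicle, 4516 CPM in TAK-931-1 but 12870 CPM in TAK-931-2, with 2 of 7 lower in both TAK-931 libraries. The part of these cell types in the results below was not tested, and in bulk RNA a change in the number of cells of a type and a change in RNA per cell cannot be told apart.

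Most of the 36 tested genes were read more in TAK-931-treated allografts, above all in TAK-931-1, but no gene passed the test. Both TAK-931 libraries exceeded both Vehicle libraries for 22 of the 36 genes (30.0% of all 13669 genes tested did), and both were below for 1, Adamts20 (32.7% of all genes tested). The median log2 fold change over the 36 genes was 1.43, against 0.02 over all genes tested, and 17 genes exceeded a log2 fold change of 1.5 (16.8% of all genes tested) while 0 fell under -1.5 (1.46%). By edgeR's quasi-likelihood test with Benjamini-Hochberg adjustment, 0 of the 36 genes and 0% of all genes tested were called at 0.05, and the lowest adjusted p was 0.275. Before adjustment, 8 genes had a p under 0.05, all higher (11.6% of all genes tested were higher at that level and 6.55% lower). DESeq2 called 9 of the 36 genes, all higher (10.3% of all genes tested were called), and limma-voom called 0. The highest level was in TAK-931-1 for 30 of the 36 genes. Without TAK-931-1 the median log2 fold change was 0.49, and without TAK-931-2 it was 2.03. With TAK-931-1 left out 9 of 36 genes were called, 7 higher and 2 lower (28.7% of all genes tested were called). With TAK-931-2 left out 26 of 37 genes were called, 25 higher and 1 lower (58.1% of all genes tested), and with either Vehicle library left out 0 of 37. The fits without a TAK-931 library took their spread from the Vehicle libraries alone. An unadjusted p under 0.05 was found for 4 of 37 genes without Vehicle-1, all higher (6.86% of all genes tested). The count was 17 of 36 without TAK-931-1, 13 higher and 4 lower (40.8%), and 29 of 37 without TAK-931-2, 26 higher and 3 lower (63.1%).

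**Figure D1:**
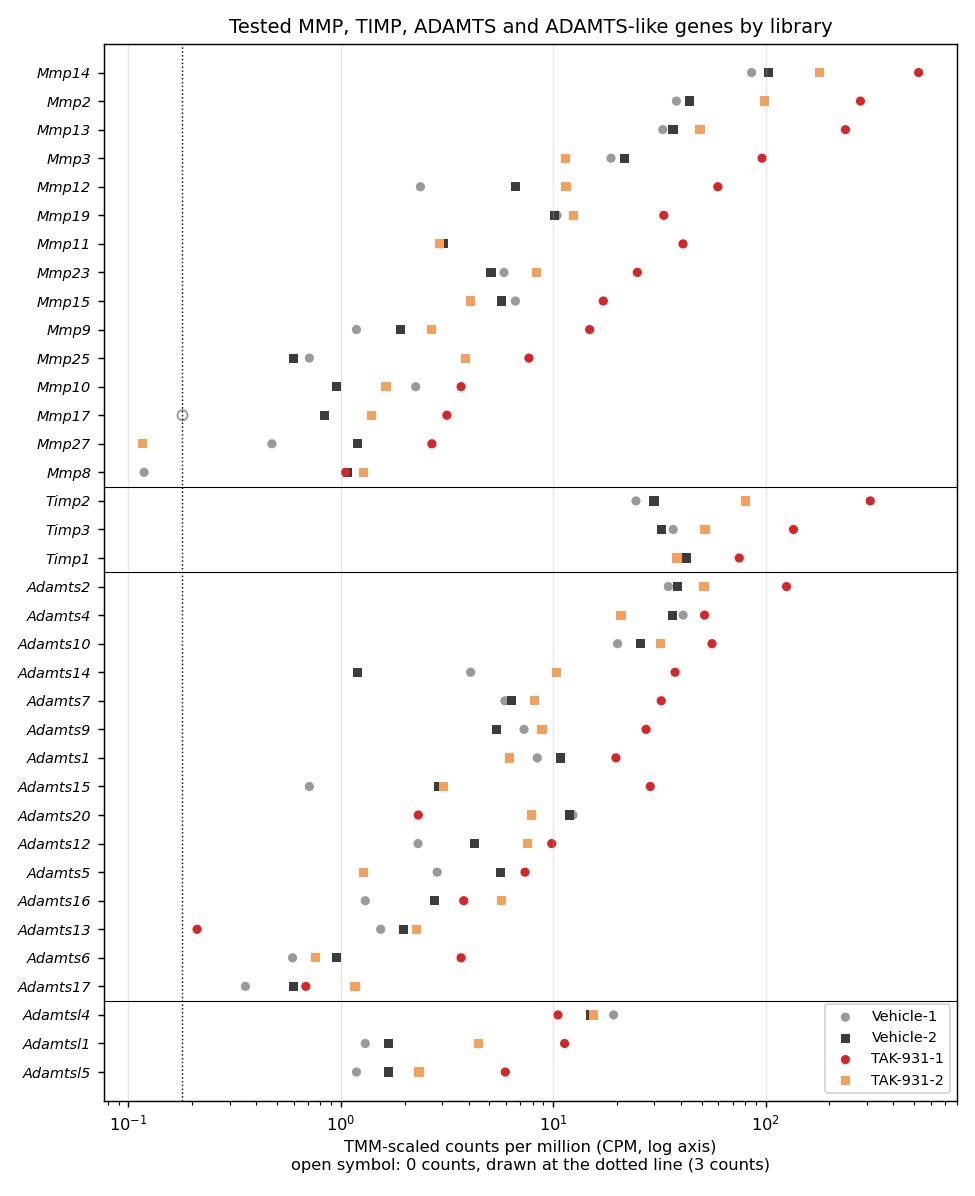
Level of each of the 36 tested genes in each library, in TMM-scaled CPM on a log axis, with grey and black symbols for the Vehicle libraries, red for TAK-931-1 and orange for TAK-931-2. TAK-931-1 was the highest library for 30 genes, and Adamts20 was the only gene lower in both TAK-931 libraries.

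The membrane-type MMPs, which sit on the cell surface, held the MMP gene with the most reads per length and the gene with the lowest p of the family. Mmp14 (chr14:54431604-54441258), which cuts fibrillar collagen at the cell surface and activates the precursor of Mmp2 together with Timp2, stood at 86.0 CPM in Vehicle-1, 103 CPM in Vehicle-2, 526 CPM in TAK-931-1 but 179 CPM in TAK-931-2. Both TAK-931 libraries lay above both Vehicle libraries, with a log2 fold change of 1.90 ± 0.59 (SE, adjusted p = 0.275, edgeR). Mmp25 (chr17:23629458-23645269), a membrane-anchored enzyme known from leukocytes, was at 0.712 and 0.599 CPM in Vehicle-1 and Vehicle-2 and at 7.69 and 3.85 CPM in TAK-931-1 and TAK-931-2. Both TAK-931 libraries were far above the Vehicle group, at 11.7 and 5.87 times its mean, with a log2 fold change of 3.12 ± 0.69 (SE, adjusted p = 0.275, edgeR). Mmp17, also membrane-anchored, had 0 counts in Vehicle-1, 0.839 CPM in Vehicle-2, 3.16 CPM in TAK-931-1 but 1.40 CPM in TAK-931-2, so that its fold change rested on few reads (log2 2.43 ± 1.62 SE, adjusted p = 0.409, edgeR). Mmp15 overlapped between groups, at 6.64 and 5.69 CPM in Vehicle against 17.2 CPM in TAK-931-1 but 4.08 CPM in TAK-931-2 (log2 fold change 0.79 ± 0.79 SE, adjusted p = 0.564, edgeR). Mmp16 had 0 counts in the Vehicle libraries and 2 and 6 counts in the TAK-931 libraries, and Mmp24 had none.

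Both gelatinases, which cut denatured collagen and the collagen IV of basement membranes, were higher in both TAK-931 libraries. Mmp2 (chr8:92827328-92853420), made mainly by fibroblasts and other stromal cells, stood at 38.1 CPM in Vehicle-1, 43.8 CPM in Vehicle-2, 280.0 CPM in TAK-931-1 but 98.7 CPM in TAK-931-2. The means were 40.9 ± 4.02 CPM in Vehicle and 189 ± 128 CPM in TAK-931 (SD, n = 2 each), and the log2 fold change was 2.21 ± 0.57 (SE, adjusted p = 0.275, edgeR). Relative to the collagen gene Col1a1 in the same library, Mmp2 was at 0.0543 and 0.0591 in the Vehicle libraries and 0.0471 and 0.0468 in the TAK-931 libraries, so that the collagen gene differed by a larger factor than the gelatinase. Mmp9, which is typical of neutrophils and macrophages, was far lower, at 1.19 and 1.92 CPM in Vehicle-1 and Vehicle-2, 14.9 CPM in TAK-931-1 but 2.68 CPM in TAK-931-2 (log2 fold change 2.49 ± 1.01 SE, adjusted p = 0.281, edgeR). TAK-931-2 was 1.73 times the Vehicle mean for Mmp9. Beside it, neutrophil markers summed to 14.5 to 15.7 CPM in Vehicle, 132 CPM in TAK-931-1 but 24.7 CPM in TAK-931-2. Of the 7 measured markers 5 were tested. Most of the TAK-931-1 sum was Csf3r, the 1 tested marker that did not overlap. Csf3r was at 5.10 and 4.32 CPM in Vehicle, 115 CPM in TAK-931-1 but 15.1 CPM in TAK-931-2. In TAK-931-2 S100a8 and Cxcr2 were at 0 and S100a9 at 0.117 CPM, under both Vehicle libraries. Mpo (8.11 CPM), Ltf (1.23 CPM) and Camp (0.233 CPM) were above both Vehicle libraries there. In TAK-931-1 Mpo and Ltf were below both Vehicle libraries.

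Among the collagenases, which make the initial cut in the triple helix of fibrillar collagen, Mmp13 was the only gene with many reads. Mmp13 was at 32.9 CPM in Vehicle-1, 36.7 CPM in Vehicle-2, 238 CPM in TAK-931-1 but 49.2 CPM in TAK-931-2. The groups did not overlap, but TAK-931-1 was 6.84 times and TAK-931-2 1.41 times the Vehicle mean (log2 fold change 2.05 ± 0.80 SE, adjusted p = 0.278, edgeR). Mmp13 is also known from cartilage and bone, whose 6 markers summed to no more than 1.05 CPM in any library, with Bglap and Ibsp at 0 in every library. Of these 6, Sox9 was the 1 tested and did not overlap, at 0.119 and 0.360 CPM in Vehicle against 0.738 and 0.817 CPM in TAK-931. Mmp8, the neutrophil collagenase, was barely read, at 0.119 and 1.08 CPM in Vehicle and 1.05 and 1.28 CPM in TAK-931 (log2 fold change 0.96). Mmp1a and Mmp1b had 0 counts in all libraries, although both carry the motifs printed above. If counts are independent, 0 allows up to 3 counts or 0.158 to 0.180 CPM. The limit is higher if both mates of a pair were counted.

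Macrophage elastase, Mmp12, which cuts elastin, was one of the genes with the largest fold changes. It stood at 2.37 CPM in Vehicle-1, 6.65 CPM in Vehicle-2, 59.6 CPM in TAK-931-1 but 11.5 CPM in TAK-931-2. The TAK-931 libraries were the higher ones, with a log2 fold change of 2.98 ± 1.02 (SE, adjusted p = 0.275, edgeR). The summed macrophage markers, which stood in the order Vehicle-2, Vehicle-1, TAK-931-2 and TAK-931-1 from low to high, had the same order of the TAK-931 libraries but the opposite order of the Vehicle libraries. Elastin itself, Eln, was at 2.96 and 3.36 CPM in Vehicle, 14.3 CPM in TAK-931-1 but 0.817 CPM in TAK-931-2. Matrilysin, Mmp7, had 2 counts in TAK-931-1 and none elsewhere.

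The stromelysins, which cut proteoglycans and activate other MMPs, were high mainly in TAK-931-1. Mmp3 was at 18.7 and 21.7 CPM in Vehicle-1 and Vehicle-2, 96.3 CPM in TAK-931-1 but 11.4 CPM in TAK-931-2, so that the TAK-931 libraries lay on either side of the Vehicle group. Its log2 fold change was 1.41 ± 1.01 (SE, adjusted p = 0.433, edgeR) and became -0.82 without TAK-931-1. Mmp11, which is activated inside the cell by furin and is known from fibroblasts next to carcinomas, was even more uneven, at 2.96 and 3.06 CPM in Vehicle, 40.9 CPM in TAK-931-1 but 2.92 CPM in TAK-931-2. This was 13.6 times the Vehicle mean in TAK-931-1 but 0.969 times in TAK-931-2 (log2 fold change 2.86 ± 1.30 SE, adjusted p = 0.3, edgeR), and without TAK-931-1 the log2 fold change was -0.05. Mmp10 was low in all libraries, at 2.25 and 0.959 CPM in Vehicle and 3.69 and 1.63 CPM in TAK-931 (log2 0.73 ± 0.81 SE, adjusted p = 0.6, edgeR). Mmp19 was at 10.4 and 10.1 CPM in Vehicle, 33.2 CPM in TAK-931-1 but 12.4 CPM in TAK-931-2 (log2 1.15 ± 0.56 SE, adjusted p = 0.319, edgeR). Exons of Mmp19 share 22.8% of their length with Tmem198b on the other strand, and reads there cannot be assigned to either gene without knowing the strand setting.

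Of the 5 other MMPs, 2 were tested. Mmp23, a short form without the haemopexin domain, was at 5.87 and 5.09 CPM in Vehicle, 24.9 CPM in TAK-931-1 but 8.34 CPM in TAK-931-2 (log2 fold change 1.60 ± 0.65 SE, adjusted p = 0.281, edgeR). Mmp27 was the most divided, at 0.474 and 1.20 CPM in Vehicle, 2.69 CPM in TAK-931-1 but 0.117 CPM in TAK-931-2 (log2 0.75 ± 1.48 SE, adjusted p = 0.776, edgeR), and its log2 fold change was -2.77 without TAK-931-1. Mmp28 had 2 counts in each Vehicle library, 9 in TAK-931-1 but 0 in TAK-931-2, and Mmp20, the enamel proteinase, had 0 counts in all libraries. In the MMP family as a whole, 9 of 15 tested genes were higher in both TAK-931 libraries, 6 overlapped and 0 were lower, with 4 at an unadjusted p under 0.05 (Mmp14, Mmp2, Mmp12 and Mmp25). Of all genes tested, 30.0% were higher and 32.7% lower in both TAK-931 libraries, and 11.6% were higher at that p.

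Along the chromosome 9 cluster, genes with many reads stood beside genes with none. From the Mmp13 end, Mmp13, Mmp12, Mmp3 and Mmp10 were read in every library, Mmp1b and Mmp1a between them were at 0, and Mmp8 and Mmp27 were near the floor of detection in at least 1 library. Of the 7 genes with TGAGTCA, 4 passed the expression filter and 3 (Mmp1a, Mmp1b and Mmp7) had no more than 2 counts in any library. Of the genes without TGAGTCA in the window, Mmp8 and Mmp27 passed the filter with 2 to 22 and 2 to 51 counts. Mmp20, also without it, had 0 counts in all libraries. TAK-931-1 was the highest library for 5 of the 6 tested genes of the cluster, whereas TAK-931-2 exceeded both Vehicle libraries for Mmp13, Mmp12 and Mmp8 and was under both for Mmp3 and Mmp27.

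**Figure D2:**
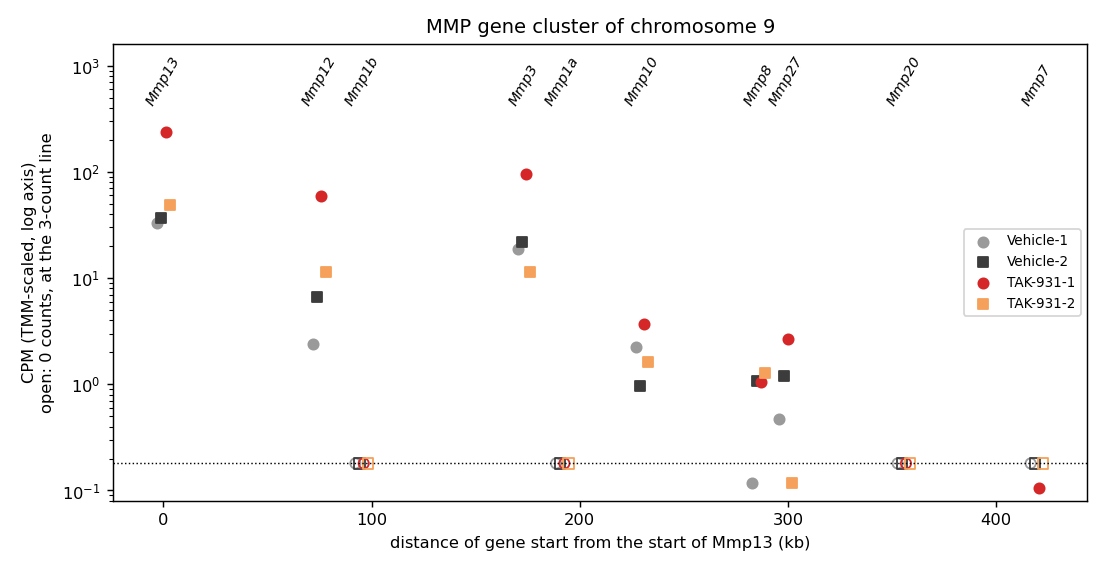
Level of the 10 clustered MMP genes in each library (TMM-scaled CPM, log axis) against the distance of the gene's start from that of Mmp13 in kilobases, with open symbols at the dotted 3-count line for 0 counts. Genes at 0 in all libraries (Mmp1b, Mmp1a, Mmp20) lie between genes that were read.

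Both tested procollagen N-proteinases, which remove the amino-terminal propeptide of fibrillar procollagens, were higher in both TAK-931 libraries. Adamts2 (chr11:50602085-50807573) was at 34.9 CPM in Vehicle-1, 38.5 CPM in Vehicle-2, 126 CPM in TAK-931-1 but 51.3 CPM in TAK-931-2. The groups did not overlap, and the log2 fold change was 1.27 ± 0.48 (SE, adjusted p = 0.276, edgeR). Adamts14 (chr10:61197112-61273438) had the largest log2 fold change of all 36 genes, at 4.09 and 1.20 CPM in Vehicle against 37.5 CPM in TAK-931-1 but 10.4 CPM in TAK-931-2 (log2 3.17 ± 0.97 SE, adjusted p = 0.275, edgeR). It was the only ADAMTS gene at an unadjusted p under 0.05. Adamts3, the other gene of this kind, had 0 and 8 counts in Vehicle and 22 and 2 in TAK-931, overlapped and was not tested. Beside them, Col1a1, which encodes a substrate of these enzymes, was at 701 and 740.1 CPM in Vehicle, 5945 CPM in TAK-931-1 but 2107 CPM in TAK-931-2.

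The proteoglycanases cut aggrecan, versican or both, and this group was mixed. Adamts4 (chr1:171250422-171259922), an aggrecanase, was at 40.9 CPM in Vehicle-1, 36.5 CPM in Vehicle-2, 51.6 CPM in TAK-931-1 but 20.9 CPM in TAK-931-2. The TAK-931 libraries again lay on either side of the Vehicle group (log2 fold change -0.09 ± 0.49 SE, adjusted p = 0.918, edgeR). Adamts5, the other main aggrecanase, showed the same split at 2.85 and 5.63 CPM in Vehicle, 7.38 CPM in TAK-931-1 but 1.28 CPM in TAK-931-2 (log2 0.03 ± 0.99 SE, adjusted p = 0.986, edgeR), and so did Adamts1, at 8.42 and 10.8 CPM in Vehicle, 19.8 CPM in TAK-931-1 but 6.24 CPM in TAK-931-2 (log2 0.44 ± 0.66 SE, adjusted p = 0.705, edgeR). Adamts9 did not overlap, at 7.29 and 5.39 CPM in Vehicle, 27.4 CPM in TAK-931-1 but 8.87 CPM in TAK-931-2 (log2 1.51 ± 0.67 SE, adjusted p = 0.297, edgeR). Adamts15 was at 0.712 and 2.88 CPM in Vehicle, 28.7 CPM in TAK-931-1 but 3.03 CPM in TAK-931-2, while the log2 fold change of 3.14 ± 1.36 (SE, adjusted p = 0.293, edgeR) was 0.75 without TAK-931-1, since TAK-931-2 was nearly level with Vehicle-2.

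Adamts20 (chr15:94270163-94404350), a versican-cutting enzyme known from pigment cell development, was the only one of the 36 genes lower in both TAK-931 libraries. It stood at 12.4 CPM in Vehicle-1, 11.9 CPM in Vehicle-2, 2.32 CPM in TAK-931-1 but 7.93 CPM in TAK-931-2. The log2 fold change was -1.25 ± 0.71 (SE, adjusted p = 0.357, edgeR). TAK-931-1 was also the lowest library for all 7 J558 and plasma cell markers, but of these 2 (Sdc1 and Xbp1) were lower in both TAK-931 libraries and 5 were highest in TAK-931-2. Adamts8 had 2 to 4 counts per library. Of the substrates, versican, Vcan, was at 7.12 and 9.71 CPM in Vehicle, 40.5 CPM in TAK-931-1 but 13.7 CPM in TAK-931-2, whereas neurocan, Ncan, was at 56.1 and 47.95 CPM in Vehicle, 13.7 CPM in TAK-931-1 but 60.6 CPM in TAK-931-2. Aggrecan, Acan, and brevican, Bcan, were at or near 0.

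Adamts7 and Adamts12, which cut cartilage oligomeric matrix protein, were both higher in both TAK-931 libraries. Adamts7 was at 5.93 and 6.35 CPM in Vehicle, 32.3 CPM in TAK-931-1 but 8.17 CPM in TAK-931-2 (log2 fold change 1.72 ± 0.75 SE, adjusted p = 0.295, edgeR). Adamts12 was more even between the TAK-931 libraries, at 2.31 and 4.26 CPM in Vehicle against 9.85 and 7.58 CPM in TAK-931 (log2 1.41 ± 0.56 SE, adjusted p = 0.279, edgeR). Their namesake substrate gene, Comp, was at no more than 2.21 CPM in any library.

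Adamts10, which binds fibrillin microfibrils, was at 20.1 and 25.8 CPM in Vehicle and 56.0 and 32.03 CPM in TAK-931 (log2 fold change 0.94 ± 0.37 SE, adjusted p = 0.280, edgeR). The related Adamts6 was at 0.593 and 0.959 CPM in Vehicle, 3.69 CPM in TAK-931-1 but 0.758 CPM in TAK-931-2 (log2 1.51 ± 1.01 SE, adjusted p = 0.409, edgeR) and overlapped. Adamts16 (1.30 and 2.76 CPM in Vehicle, 3.79 and 5.72 CPM in TAK-931) and Adamts17 (0.356 and 0.599 CPM in Vehicle, 0.685 and 1.17 CPM in TAK-931) were higher in both TAK-931 libraries, and unlike most members they were highest in TAK-931-2. Their log2 fold changes were 1.22 ± 0.67 (SE, adjusted p = 0.344, edgeR) and 0.94. Adamts13, which cuts von Willebrand factor in blood, was at 1.54 and 1.98 CPM in Vehicle, 0.211 CPM in TAK-931-1 but 2.28 CPM in TAK-931-2 (log2 -0.50 ± 1.20 SE, adjusted p = 0.814, edgeR), and was the only one of the 36 genes lowest in TAK-931-1 and highest in TAK-931-2. Its substrate gene Vwf was at 0.712 and 1.56 CPM in Vehicle, 31.7 CPM in TAK-931-1 but 9.10 CPM in TAK-931-2. Adamts18 had 4 counts in TAK-931-1 and none elsewhere.

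The ADAMTS-like genes, whose products have no proteinase domain, differed among themselves. Adamtsl1 (chr4:86053915-86428382) was at 1.30 and 1.68 CPM in Vehicle, 11.3 CPM in TAK-931-1 but 4.43 CPM in TAK-931-2, without overlap (log2 fold change 2.40 ± 0.70 SE, adjusted p = 0.275, edgeR). Adamtsl5 followed at 1.19 and 1.68 CPM in Vehicle against 5.95 and 2.33 CPM in TAK-931 (log2 1.53 ± 0.74 SE, adjusted p = 0.316, edgeR). Adamtsl4, the most read of these genes and a fibrillin-associated protein, was not higher in either TAK-931 library than in both Vehicle libraries, at 19.3 and 14.99 CPM in Vehicle against 10.5 and 15.5 CPM in TAK-931 (log2 -0.39 ± 0.38 SE, adjusted p = 0.549, edgeR). Adamtsl3 had no more than 8 counts in any library. Across the 51 genes, 4 of those not tested had no more than 2 counts in any library and 5 (Mmp1a, Mmp1b, Mmp20, Mmp24 and Timp4) had none.

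**Figure D3:**
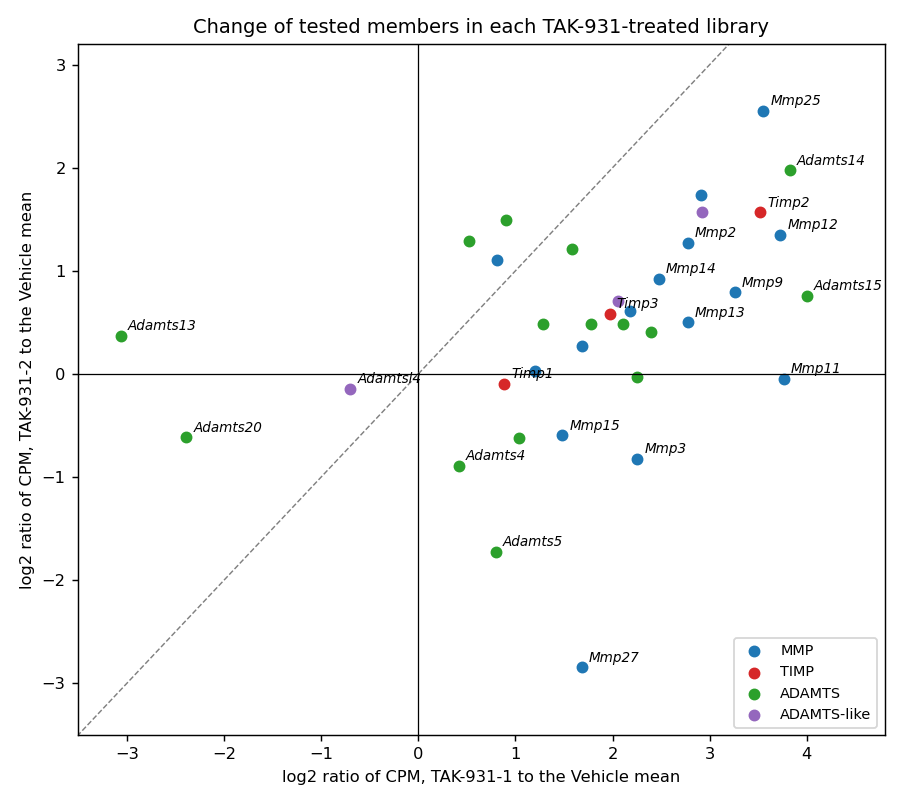
Log2 ratio of CPM to the Vehicle mean in TAK-931-1 (horizontal axis) and TAK-931-2 (vertical axis) for each tested gene, coloured by family, with the dashed line marking equal ratios. Most genes lie to the right of 0 and under the dashed line, with Mmp3, Mmp27, Adamts5 and Adamts4 among those positive in TAK-931-1 and negative in TAK-931-2.

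Of the 4 inhibitor genes, 2 (Timp2 and Timp3) were higher in both TAK-931 libraries without passing the test, Timp1 overlapped and Timp4 was not read. Timp2 (chr11:118301061-118355411), which inhibits MMPs broadly and also links the Mmp2 precursor to Mmp14, was at 24.5 CPM in Vehicle-1, 29.9 CPM in Vehicle-2, 311 CPM in TAK-931-1 but 80.5 CPM in TAK-931-2. The groups did not overlap, at 11.4 and 2.96 times the Vehicle mean, and the log2 fold change was 2.85 ± 0.73 (SE, adjusted p = 0.275, edgeR). Timp3 (chr10:86300412-86349505), which is bound to the matrix and also inhibits aggrecanases, was at 36.8 and 32.4 CPM in Vehicle, 135 CPM in TAK-931-1 but 51.9 CPM in TAK-931-2 (log2 1.44 ± 0.52 SE, adjusted p = 0.275, edgeR). Timp1 (chrX:20870166-20874737), a poor inhibitor of membrane-type MMPs, overlapped, at 39.6 and 42.2 CPM in Vehicle, 75.2 CPM in TAK-931-1 but 38.3 CPM in TAK-931-2 (log2 0.47 ± 0.39 SE, adjusted p = 0.486, edgeR). Timp4 had 0 counts in every library.

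Levels were compared between genes per kilobase of summed exon length (RPKM, from TMM-scaled counts). In the Vehicle group Mmp14 was the highest MMP at a mean of 36.4 RPKM. Mmp2 at 13.5 RPKM and Mmp13 at 13.0 RPKM overlapped between libraries, and Mmp3 followed closely at 11.2 RPKM. Mmp14 kept 39.3% to 47.6% of the summed MMP level in all libraries, whereas the share of Mmp3 was 12.8% and 12.9% in Vehicle, 10.4% in TAK-931-1 but 4.38% in TAK-931-2. Of the summed TIMP level, Timp1 made up 75.2% and 75.8% in Vehicle, 42.4% in TAK-931-1 with 56.4% in TAK-931-2, while Timp2 made up 11.5% and 13.2% in Vehicle and 43.1% and 29.1% in TAK-931. In TAK-931-1 Timp2 (85.9 RPKM) and Timp1 (84.5 RPKM) were nearly equal. Adamts4 held 40.0% and 33.6% of the summed ADAMTS level in Vehicle and 19.2% and 18.8% in TAK-931.

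The summed MMP level was 81.2 and 93.7 RPKM in Vehicle-1 and Vehicle-2, 515 RPKM in TAK-931-1 and 145 RPKM in TAK-931-2, and the summed TIMP level was 59.1, 62.6, 199 and 76.3 RPKM in the same order. The ratio of MMP to TIMP was 1.38 and 1.498 in Vehicle and 2.58 and 1.90 in TAK-931, without overlap, and with 2 libraries per group an exact test cannot give a p below 0.333. Summed without division by length, the mean ratio was 2.20 in Vehicle and 2.43 in TAK-931, and the libraries then overlapped, at 2.07 and 2.32 in the Vehicle libraries, 2.59 in TAK-931-1 but 2.28 in TAK-931-2. For the pair Mmp14 and Timp2 the ratio of RPKM went the other way, at 4.89 and 4.82 in Vehicle against 2.36 and 3.10 in TAK-931, as did that of Mmp2 to Timp2, at 1.85 and 1.75 against 1.07 and 1.46. The ratio of Mmp9 to Timp1 was higher in TAK-931, at 0.00841 and 0.0127 in Vehicle against 0.0554 and 0.0197. These are RNA levels and do not measure enzyme activity.

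**Figure D4:**
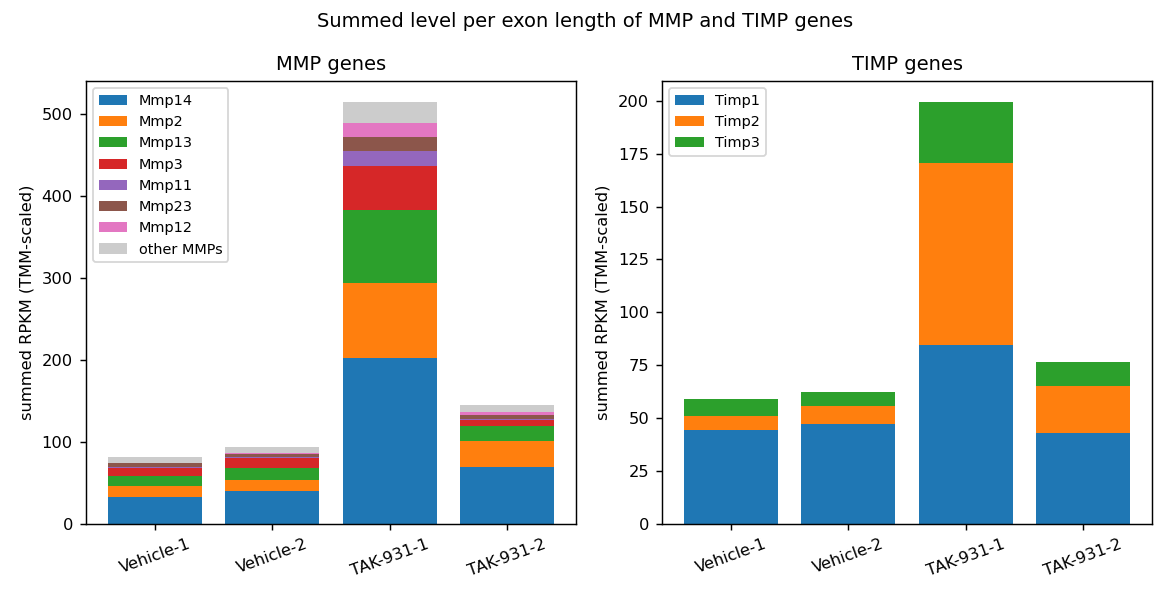
Summed level per exon length (RPKM) of the MMP genes (left) and TIMP genes (right) in each library, stacked by gene. MMP sums were 81.2 and 93.7 in Vehicle, 515 in TAK-931-1 but 145 in TAK-931-2, and the Timp1 part of the TIMP sum was 75.2% and 75.8% in Vehicle and 42.4% and 56.4% in TAK-931.

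Genes that activate, bind or clear these enzymes were examined as a list of 18, of which 17 were tested, 10 were higher in both TAK-931 libraries and 1 was lower (30.0% and 32.7% of all genes tested). Plau, the urokinase that starts the plasmin cascade activating MMP precursors, was at 22.4 and 21.1 CPM in Vehicle, 259 CPM in TAK-931-1 but 44.3 CPM in TAK-931-2. Furin, the convertase that activates membrane-type MMPs and ADAMTS precursors inside the cell, was at 48.4 and 42.2 CPM in Vehicle and 117 and 65.9 CPM in TAK-931. Lrp1, the receptor that takes up MMPs, ADAMTS proteinases and TIMP complexes, was at 44.2 and 39.5 CPM in Vehicle, 608 CPM in TAK-931-1 but 108 CPM in TAK-931-2. The membrane-bound inhibitor Reck (8.42 to 11.5 CPM) and the MMP inducer Bsg (573 to 617 CPM) varied little over the 4 libraries, and Cd44, which docks proteinases at the cell surface, was lower in both TAK-931 libraries (494 to 531 CPM in Vehicle, 310.1 and 429 CPM in TAK-931). None of these genes was called by edgeR (lowest adjusted p 0.275), and 8 were at an unadjusted p under 0.05, all higher (11.6% of all genes tested).

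Of 15 proteoglycan, collagen and other substrate genes, 12 were tested and 10 were higher in both TAK-931 libraries (30.0% of all genes tested), 6 of them at an unadjusted p under 0.05 (11.6%). Col1a1, Col1a2 and Col3a1 were also among the fibroblast markers and Vwf among the endothelial markers, so these lists were not separate. Fibronectin, Fn1, was even between the TAK-931 libraries, at 189 and 207 CPM in Vehicle and 943 and 686 CPM in TAK-931. Of 9 genes of the membrane-bound ADAM family, relatives of the ADAMTS enzymes, 8 were tested and 6 were higher in both TAK-931 libraries, beside the same 30.0%. Adam8, known from myeloid cells, was at 6.11 and 9.89 CPM in Vehicle, 245 CPM in TAK-931-1 but 32.1 CPM in TAK-931-2. The broadly expressed sheddases Adam10 (131 to 170 CPM) and Adam17 (159 to 214 CPM) stayed in a narrower range. Adam10 overlapped, whereas Adam17 was among the genes counted as higher, at 168 and 159 CPM in Vehicle and 214 and 181 CPM in TAK-931.

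Set beside the marker lists, the median ratios of the families lay below those of the fibroblast and macrophage markers. The median ratio to the Vehicle mean over the 15 tested MMPs was 5.56 in TAK-931-1 but 1.52 in TAK-931-2, 2.44 and 1.40 over the 15 ADAMTS genes, 4.16 and 1.63 over the 3 ADAMTS-like genes, and 3.92 and 1.501 over the 3 TIMPs. For the fibroblast markers it was 8.25 and 2.09, for the macrophage markers 15.4 and 2.77, and for the endothelial markers 3.54 and 0.848. Differences between these lists were not tested.

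**Figure D5:**
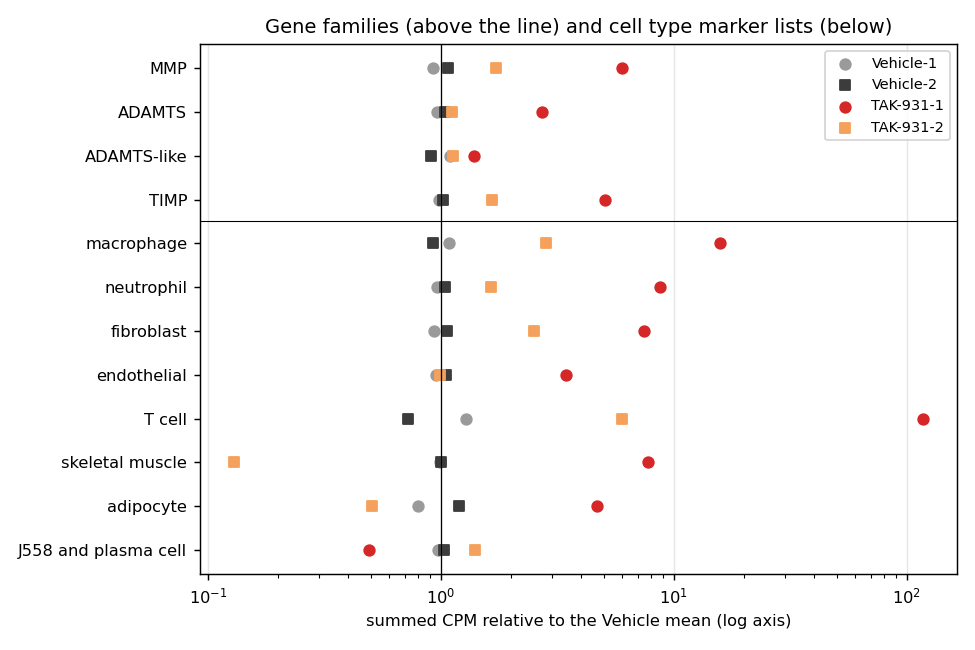
Summed CPM of each gene family (above the line) and of each marker list (below) in each library, relative to the Vehicle mean on a log axis. MMP and TIMP sums and the macrophage and fibroblast sums were highest in TAK-931-1 and next in TAK-931-2, and plasma cell markers were lowest in TAK-931-1.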

How the data were processed

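RNA was extracted with a column kit from J558 allografts, 2 per group, and sequenced. Per the paper, the Vehicle-1 and TAK-931-1 allografts also served for immunohistochemistry and single-cell RNA sequencing. The authors deposited 1 table of raw read counts per gene and library, together with an exon length per gene, which is a value of another kind. Per the submitters' processing notes, STAR 2.6.1c, featureCounts and mm10 were used. The strand setting is not given in the sources used here. Of counts from 1 to 20, 17.9% to 23.9% were odd, so mates of a pair seem to be counted singly and counting error is larger than the counts imply. Total counts were 17008355 (Vehicle-1), 16716624 (Vehicle-2), 19589339 (TAK-931-1) and 16487902 (TAK-931-2). For genes without reads the upper limit was set at 3 counts, which holds only if counts are independent. This limit is higher if mates were counted singly.

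Genes were kept with filterByExpr (minimum count 10), scaled by TMM and tested with the robust two-sided quasi-likelihood test of edgeR 4.0.16 (R 4.3.3), fitting treatment alone, with Benjamini-Hochberg adjustment at 0.05. SE was the log2 fold change over the square root of F. P-values measure the spread between 2 mice per group. RPKM was computed here from TMM-scaled counts and exon length. The alternatives used DESeq2 1.42.0, limma-voom (limma 3.58.1), other scalings and filters, a replicate block, halved counts and each library left out. The scripts were tested on simulated data. The genes examined (the members) and the lists were chosen with earlier results of these data known. All members that passed the filter were named, with test results where the mean was at least 1 CPM, and others where a library had over 3 counts. Promoter sequences were those of RefSeq on GRCm38.p6.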

Additional observations from a re-analysis of the deposited data

How the results depend on the processing

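Of the 34 named genes with a mean of at least 1 CPM, 24 kept their direction under every alternative in which they could be fitted. With DESeq2, 9 members (Adamts14, Adamts15, Adamtsl1, Mmp12, Mmp13, Mmp14, Mmp2, Mmp25 and Timp2) and 1411 genes in all were called, and 18 members had an unadjusted p under 0.05 (23.5% of all genes tested did). With each library left out in turn, between 0 and 26 members and between 0 and 8424 genes were called, between 4 and 29 members had an unadjusted p under 0.05, the median log2 fold change was 0.49 to 2.03, and 24 to 36 members did not overlap (70.4% to 93.4% of all genes tested). Of those not overlapping, 24 were higher and 9 lower without TAK-931 replicate 1 (42.1% and 44.3% of all genes tested), and 33 higher and 3 lower without TAK-931 replicate 2 (47.3% and 46.1%). Without TAK-931 replicate 1, 9 members were called, and 26 without TAK-931 replicate 2; both fits take their spread from the Vehicle libraries alone and assume that the lone TAK-931 library varies like them. Over all genes tested, the difference between Vehicle-1 and Vehicle-2 correlated at 0.0198 with that between TAK-931-1 and TAK-931-2. Whether the replicate numbers pair the libraries was not tested. With the replicate block 144 genes but 0 members were called. In that fit Adamts5 was at -0.35 and Mmp27 at -0.11 on the log2 scale, in limma-voom they were at -0.34 and -0.26, and Adamts5 was at -0.0076 with no filter. Left-out libraries also turned the direction of single genes, over ranges of log2 fold change of -0.89 to 0.39 for Adamts4, -0.62 to 1.02 for Adamts1, -1.72 to 0.78 for Adamts5, -3.04 to 0.37 for Adamts13, -0.035 to 2.22 for Adamts6, -0.82 to 2.23 for Mmp3, -0.048 to 3.74 for Mmp11, -0.60 to 1.46 for Mmp15, -2.77 to 1.65 for Mmp27 and -0.10 to 0.86 for Timp1. The cause of these changes was not tested. The mean MMP to TIMP ratio of the Vehicle libraries was 2.20 without division by exon length. Scaling by median of ratios or by library size turned no direction. Depth limits what can be said of the 5 members with 0 counts in every library. For these up to 3 counts per library are allowed, or more if mates were counted singly.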

Other observations

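Timp1, Timp3 and Timp4 lie inside introns of the synapsin genes Syn1, Syn3 and Syn2, on the other strand. Syn1 was at 0.712 CPM in Vehicle-1, 0.240 CPM in Vehicle-2, 7.90 CPM in TAK-931-1 but 2.16 CPM in TAK-931-2, with Timp1 at 39.6, 42.2, 75.2 and 38.3 CPM in the same libraries. Syn3 was at 0.480 to 1.53 CPM and Syn2 at 0.119 to 1.26 CPM. The part of Syn1 reads in the counts of Timp1 was not tested.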
